A study of Mus musculus with 12 samples.

Results

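Vip interneurons, the inhibitory cortical neurons that make vasoactive intestinal peptide, were picked out of a single-nucleus RNA survey of the mouse motor cortex, and 750 of 51683 kept nuclei met the rule for them. Nuclei were kept with 500 or more detected genes and less than 5% of UMIs from mitochondrial genes (UMIs are unique molecular identifiers, each standing for 1 captured transcript). A Vip nucleus then had at least 2 UMIs of Gad1 and Gad2 together, at most 2 of Slc17a7, at least 3 of Vip, at most 3 of Sst and at most 1 of Pvalb. The levels of these 6 genes chose the nuclei, so they are described below, with no test, and stand outside the gene lists.

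The tissue came from the right motor cortex (M1), from its caudal forelimb area, in 6 mice aged 13 weeks. Trained mice 2, 4 and 6 were water restricted and, while head-fixed, pressed a lever with the left paw, a task in which they earned some of their water over days 11 to 13. Control mice 1, 3 and 5 had the same water restriction and no motor task, so restriction is common to both groups. The sources used here name neither strain nor genotype. Each mouse was sequenced at a shallow and a deep setting, and the deposited matrix joins the runs, so that each mouse is 1 replicate. The Vip nuclei numbered 95, 123 and 87 in trained mice 2, 4 and 6, against 173, 159 and 113 in control mice 1, 3 and 5.

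Vip interneurons arise in the caudal ganglionic eminence of the embryonic brain and are best known as a disinhibitory class. They inhibit other interneurons, above all those that make somatostatin, and so release pyramidal neurons from inhibition. They receive cholinergic and serotonergic input through fast receptor channels and are recruited during movement, reward and arousal in many cortical areas.

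The UMIs summed over Vip nuclei of a mouse ranged from 658280 to 1360316. The median Vip nucleus held 6757, 5084 and 6539 UMIs in trained mice 2, 4 and 6, against 7141, 5583 and 5916 in control mice 1, 3 and 5, and these ranges overlapped. Mitochondrial UMIs made up 0.0708%, 0.0226% and 0.0242% of the Vip sums of trained mice 2, 4 and 6, against 0.0312%, 0.0194% and 0.0194% in control mice 1, 3 and 5, with trained mouse 2 standing apart. A doublet caller run per mouse marked 2440 kept nuclei (4.72%), of which 41 were Vip nuclei. These stayed in, and each result was recomputed without them. Among kept nuclei, 307 barcode sequences occurred in more than 1 mouse, and 2 Vip nuclei carried the barcode of a Vip nucleus of another mouse.

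The label was checked against Vip, Htr3a, Calb2 and Crispld2. Vip itself (chromosome 10, 5639218 to 5647617, plus strand, mm10) spanned 3 to 104 UMIs per Vip nucleus, with a median of 17 and quartiles of 9 and 26. The 750 nuclei held 71.1% of all Vip UMIs in the kept nuclei. Just outside the threshold lay 33 nuclei with 2 Vip UMIs and 171 with 1, and just inside lay 29 nuclei with 3 and 31 with 4. Of 986 kept nuclei with at least 3 Vip UMIs, 202 were left out for too few Gad1 and Gad2 UMIs, 28 for Slc17a7, 5 for Sst and 5 for Pvalb, and a nucleus can fail in more than 1 way. Within the Vip nuclei, Slc17a7 was at 0 in 632, Sst at 0 in 644 and Pvalb at 0 in 723. Htr3a and Calb2 were present at the levels given below. Crispld2 had 0 UMIs in all kept nuclei, of any type, so it could not be used to check the label. Vip was fixed by the rule, which leaves Htr3a and Calb2 as checks, and each overlapped 1 other class in its level per mouse (Htr3a the Sncg class and Calb2 the Sst class).

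Which transcripts set Vip interneurons apart from their relatives was asked by setting them against 3 other GABAergic classes of the same mice. The Sncg-type class had 191 nuclei with at most 2 Vip UMIs, high in Cnr1 and Adarb2. The Lamp5 class had 217 nuclei with Lamp5 and Adarb2, and the Sst class 683 nuclei with at least 10 Sst UMIs. UMIs were summed per mouse and class, and the sums were compared in edgeR by the quasi-likelihood test with mouse as a block and Benjamini-Hochberg adjustment over all genes tested, with a threshold of 0.05. Genes used by the rule of either class were left out. Against the Sncg class, 1051 of 9574 genes (11%) were higher in Vip nuclei and 876 (9.15%) lower. The Lamp5 comparison gave 1250 of 9174 (13.6%) higher and 1157 (12.6%) lower, and the Sst comparison 1870 of 10632 (17.6%) higher and 1638 (15.4%) lower. Of 8888 genes tested in all 3 comparisons, 424 were higher in Vip nuclei each time and 167 lower each time. Vip nuclei were shallower, with a median of 6206 UMIs, against 10124 in the Sncg, 8683 in the Lamp5 and 10091 in the Sst class, and the part of depth in these differences was not tested.

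Peptide genes were among the largest differences. Crh, which encodes corticotropin-releasing hormone (chromosome 3, 19693401 to 19695396, minus strand), had a lowest, median and highest level over the 6 mice of 140, 228 and 268 CPM (UMIs of the gene scaled to a fixed total for the summed class) in Vip nuclei. The same values were 0, 4.27 and 15.7 CPM in Sncg nuclei, 0, 0 and 4.59 in Lamp5 nuclei and 2.59, 6.18 and 8.34 in Sst nuclei. The lowest Vip value lay above the highest of every other class. The log2 difference was 4.61 ± 0.275 (SE) against Sncg, 7.54 ± 0.32 against Lamp5 and 5.17 ± 0.157 against Sst nuclei, with edgeR adjusted p of 5.79e-14, 1.19e-19 and 1.92e-20.

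Penk, the precursor of the enkephalins (chromosome 4, 4133531 to 4138819, minus strand), had 124, 200 and 226 CPM in Vip nuclei as lowest, median and highest mouse. It was at 0 in every mouse of the Sncg class, and it reached at most 8 CPM in Lamp5 and 9.38 CPM in Sst nuclei. Against the limit that 3 UMIs over the whole Sncg class would set (1.35 CPM), Penk was at least 138-fold higher in Vip nuclei, and its log2 difference was 6.00 against Lamp5 and 4.99 against Sst nuclei (edgeR adjusted p = 6.37e-18 and 4.89e-19). Tac2, the precursor of neurokinin B (chromosome 10, 127724478 to 127731768, plus strand), had 376, 447 and 503 CPM in Vip nuclei, against 25.1, 55.8 and 118 CPM in Sncg nuclei, the next highest class. The Vip range overlapped none of the others, and the log2 difference from Sncg nuclei was 2.84 ± 0.165 (edgeR adjusted p = 3.38e-14). Pthlh, which encodes a parathyroid hormone-related peptide, had 45, 51.1 and 60.8 CPM in Vip nuclei and was at 0 in every mouse of the Sncg class, so that it was at least 38.5-fold higher in Vip nuclei. Its log2 difference was 5.54 against Lamp5 and 7.63 against Sst nuclei.

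**Figure D1:**
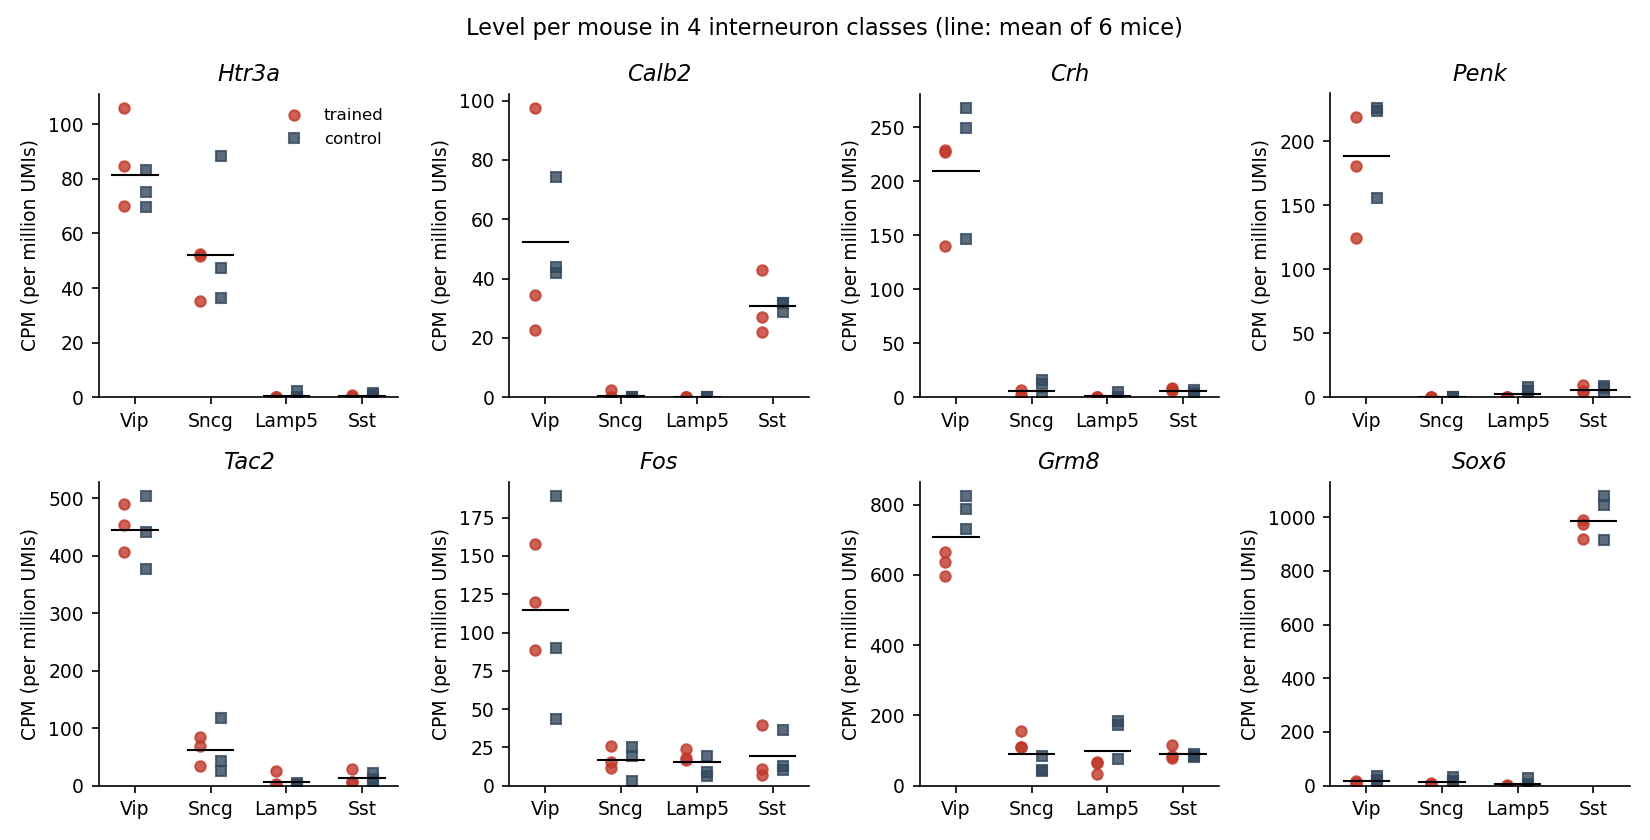
Levels in CPM of 8 genes (a linear axis for each gene) in Vip, Sncg, Lamp5 and Sst nuclei, 1 point per mouse coloured by training, with a line at the mean of 6 mice. Crh, Penk, Tac2, Fos and Grm8 are higher in Vip nuclei than in each other class in all mice, and Sox6 is high in the Sst class (914 to 1077 CPM).

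Other peptides did not follow. Cck, the cholecystokinin gene, had 171, 210 and 290 CPM in Vip nuclei, against 292, 409 and 472 CPM in Sncg nuclei, and was lower in Vip nuclei by 0.92 on the log2 scale (edgeR adjusted p = 5.78e-07), but it was higher than in Lamp5 nuclei (1.39) and Sst nuclei (2.51). Npy, the neuropeptide Y gene, was lower in Vip nuclei than in Lamp5 nuclei (log2 difference -3.03, adjusted p = 1.41e-17) and Sst nuclei (-1.96, adjusted p = 5.55e-14). Of the list of 15 neuropeptide genes, with Vip and Sst left out as rule genes, 5 of 7 tested were higher and 2 lower in Vip nuclei than in Sncg nuclei (median log2 difference 2.42, against 0.01 for all genes tested). The Lamp5 comparison gave 4 higher and 1 lower of 6 (median 3.69, all genes -0.01), and the Sst comparison 5 higher and 3 lower of 8 (median 2.86, all genes 0.00). Of all genes tested, 11%, 13.6% and 17.6% were higher against Sncg, Lamp5 and Sst nuclei, and 9.15%, 12.6% and 15.4% lower.

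Calb2, which encodes the calcium-binding protein calretinin (chromosome 8, 110137502 to 110168210, minus strand), had 22.8, 42.9 and 97.5 CPM in Vip nuclei, against 0, 0 and 2.36 CPM in Sncg nuclei, 0 in all 6 mice of the Lamp5 class and 22.1, 30.2 and 42.8 CPM in Sst nuclei. Against the limit of 3 UMIs over the Lamp5 class (1.45 CPM), it was at least 35.4-fold higher in Vip nuclei. Vip and Sst nuclei overlapped, and the difference between them was 0.68 ± 0.154 on the log2 scale (edgeR adjusted p = 0.000848). Htr3a, a subunit of the ionotropic serotonin receptor (chromosome 9, 48899213 to 48911099, minus strand), had 69.8, 79.2 and 106 CPM in Vip nuclei, against 35.4, 49.5 and 88.4 CPM in Sncg nuclei. The classes overlapped, with a log2 difference of 0.61 ± 0.172 (edgeR adjusted p = 0.0106), which DESeq2 did not call (0.58, adjusted p = 0.147), nor edgeR without control mouse 1 (0.48, adjusted p = 0.102). Htr3a was low elsewhere, at no more than 2.29 CPM in any mouse of the Lamp5 class and 1.54 CPM in the Sst class. Chat, the enzyme that makes acetylcholine, had 9.11, 26.8 and 31.9 CPM in Vip nuclei and was at 0 in every mouse of the Sncg class, so that it was at least 18.3-fold higher in Vip nuclei.

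Receptors for incoming signals also differed by class. Grpr, the receptor of gastrin-releasing peptide, had 46, 60.1 and 82 CPM in Vip nuclei as lowest, median and highest mouse, against a highest value of 11.8 CPM in any other class. The log2 difference was 3.74, 5.31 and 5.23 against Sncg, Lamp5 and Sst nuclei (edgeR adjusted p = 8.78e-10, 1.55e-12 and 1.73e-14), and 8.18 against Lamp5 nuclei without control mouse 1. Npy1r, a neuropeptide Y receptor, had 110, 140 and 149 CPM in Vip nuclei, against 40.5, 52.7 and 67.4 CPM in Sncg nuclei, 8, 22.5 and 35.7 CPM in Lamp5 nuclei and 1.3, 2.99 and 5.41 CPM in Sst nuclei. The 4 classes did not overlap, and Npy5r, a second receptor of the same peptide, was also higher in Vip nuclei than in each class (log2 differences 0.97, 2.83 and 3.19). Vipr1, a receptor of vasoactive intestinal peptide itself, was higher as well, at 16.8 ± 6.22 CPM in Vip nuclei against 2.7 ± 1.72 CPM in Sst nuclei (TMM-scaled, SD, n = 6 mice; log2 difference 2.62, adjusted p = 1.02e-06). Against Sncg nuclei, Npy5r and Vipr1 were not called by DESeq2 (adjusted p = 0.0633 and 0.0533), nor was Vipr1 by edgeR without control mouse 1 (1.50, adjusted p = 0.0522).

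The opioid receptor gene Oprm1 went both ways: it was higher in Vip than in Sncg nuclei (log2 difference 1.83, edgeR adjusted p = 3.98e-06) and lower than in Lamp5 nuclei (-1.02, adjusted p = 8.48e-07). Over the peptide receptor list of 26 genes, 5 of 9 tested were higher and 0 lower against Sncg nuclei (median 0.97). Against Lamp5 nuclei the counts were 7 higher and 1 lower of 9 (median 1.78), and against Sst nuclei 9 higher and 7 lower of 17 (median 0.31). All genes tested gave 11%, 13.6% and 17.6% higher and 9.15%, 12.6% and 15.4% lower in that order, with medians of 0.01, -0.01 and 0.00.

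Among receptors for serotonin, noradrenaline and acetylcholine, Htr4, a serotonin receptor coupled to cyclic AMP, had 69, 95.8 and 119 CPM in Vip nuclei and no more than 15.7 CPM in any mouse of the other classes (log2 differences 3.33, 3.49 and 4.70). Adra1b, an alpha-adrenergic receptor, had 184, 220 and 344 CPM in Vip nuclei, against 33.2, 55.5 and 84.2 CPM in Sncg nuclei, 54, 102 and 189 CPM in Lamp5 nuclei and 20.1, 21.4 and 25.4 CPM in Sst nuclei. Only the Lamp5 range reached the Vip range, and all 3 differences passed the edgeR threshold (log2 1.94, 1.21 and 3.35, adjusted p = 2.32e-11, 1.29e-07 and 6.75e-19). Adrb1, a beta-adrenergic receptor, and Chrna5, a nicotinic receptor subunit, were higher than in each class too, by 1.22, 0.96 and 2.09 and by 1.20, 1.68 and 4.80 on the log2 scale. For Chrna5 the call against Sncg nuclei was lost under DESeq2 (adjusted p = 0.126) and in edgeR without control mouse 1 (0.84, adjusted p = 0.139). By contrast Htr1f, another serotonin receptor, was lower in Vip nuclei than in Lamp5 nuclei (-1.86) and Sst nuclei (-0.76). Of the list of 33 such receptors, 6 of 17 tested were higher and 4 lower against Sncg nuclei (median -0.08), 9 higher and 4 lower of 15 against Lamp5 nuclei (1.20), and 11 higher and 4 lower of 17 against Sst nuclei (1.50). The shares over all genes were 11%, 13.6% and 17.6% higher and 9.15%, 12.6% and 15.4% lower (medians 0.01, -0.01 and 0.00).

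Glutamate receptor genes were divided. Grm8, a presynaptic metabotropic receptor (chromosome 6, 27275119 to 28135178, minus strand), had 598, 698 and 825 CPM in Vip nuclei, against 42.1, 96.1 and 155 CPM in Sncg nuclei, 32.2, 71.5 and 184 CPM in Lamp5 nuclei and 79.3, 84.3 and 117 CPM in Sst nuclei. The Vip range overlapped none of the others, and the log2 differences were 2.80, 2.91 and 2.95 (edgeR adjusted p = 2.71e-13, 7.42e-17 and 5.44e-20). Its relative Grm7 had 1519, 1930 and 2228 CPM in Vip nuclei and 1774, 1957 and 2206 CPM in Sst nuclei, which overlapped (log2 difference -0.10, adjusted p = 0.351), whereas it reached no more than 375 CPM in Sncg nuclei and 406 CPM in Lamp5 nuclei. The kainate receptor gene Grik4 was higher in Vip nuclei than in each class (log2 1.34, 1.25 and 2.77), and Grik1, another kainate subunit, was lower than in each (-0.69, -2.27 and -1.98). Of 22 glutamate receptor genes tested each time, 10 were higher and 2 lower against Sncg nuclei (median 0.35), 10 higher and 6 lower against Lamp5 nuclei (0.19), and 7 higher and 12 lower against Sst nuclei (-0.31). Shares over all genes were 11%, 13.6% and 17.6% higher and 9.15%, 12.6% and 15.4% lower (medians 0.01, -0.01 and 0.00).

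The machinery of GABA signalling showed no common direction. Against Sncg nuclei 6 of 16 tested genes were higher and 5 lower (median 0.01), against Lamp5 nuclei 4 of 17 higher and 8 lower (-0.14), and against Sst nuclei 9 of 18 higher and 4 lower (0.21). For all genes the shares were 11%, 13.6% and 17.6% higher and 9.15%, 12.6% and 15.4% lower (medians 0.01, -0.01 and 0.00). Gabra5, an alpha subunit of the GABA-A receptor, was lower in Vip nuclei than in Lamp5 nuclei (-3.47, edgeR adjusted p = 1.83e-16).

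Most genes of the immediate early response to neuronal activity were higher in Vip nuclei than in the other classes. Fos, the classic immediate early transcription factor gene, had 43.4, 105 and 189 CPM in Vip nuclei as lowest, median and highest mouse, against 2.79, 17.6 and 25.9 CPM in Sncg nuclei, 6, 17.3 and 24.1 CPM in Lamp5 nuclei and 7.03, 12 and 39.6 CPM in Sst nuclei. The lowest Vip value exceeded the highest of each other class, and the log2 differences were 2.73 ± 0.208, 2.99 ± 0.209 and 2.50 ± 0.156 (edgeR adjusted p = 1.35e-11, 6.91e-14 and 1.27e-13). Egr1 had 78.7, 125 and 177 CPM in Vip nuclei, against highest values of 48 CPM in Sncg, 60.7 CPM in Lamp5 and 102 CPM in Sst nuclei, and only the Sst range overlapped. Its log2 differences were 2.19, 1.84 and 1.19 (adjusted p = 3.71e-10, 2.23e-10 and 5.78e-10), and those of Nr4a1 1.38, 1.54 and 1.74.

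Of 25 immediate early genes, 14 of 18 tested were higher and 0 lower against Sncg nuclei (median log2 difference 1.38, all genes 0.01). The Lamp5 comparison gave 12 of 15 higher and 0 lower (1.15, all genes -0.01), and the Sst comparison 16 of 20 higher and 1 lower (1.22, all genes 0.00), the lower one being Arc, a synaptic scaffold gene (-0.59, edgeR adjusted p = 0.0372). Arc lost that call under DESeq2 (adjusted p = 0.295) and without trained mouse 2 or any 1 control mouse, with values of -0.64 to -0.46 and adjusted p of 0.0614 to 0.186. Of the 15 tested in all 3 comparisons, 11 were higher in Vip nuclei each time, against 424 of 8888 genes of any kind. Over all genes tested, 11%, 13.6% and 17.6% were higher against Sncg, Lamp5 and Sst nuclei, and 9.15%, 12.6% and 15.4% lower. Genes of the slower response moved less uniformly, with 9 of 19, 9 of 18 and 11 of 22 higher and 0, 0 and 3 lower against Sncg, Lamp5 and Sst nuclei (medians 0.38, 0.62 and 0.83). The 3 lower ones were Vgf, Tiparp and Cpeb3, of which Tiparp was not called by DESeq2 (adjusted p = 0.0895) or by edgeR without control mouse 1 (-0.41, adjusted p = 0.0659).

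Within that slower group, Igf1, which encodes insulin-like growth factor, had 484, 586 and 919 CPM in Vip nuclei, against 244, 262 and 390 CPM in Sncg nuclei, 138, 182 and 325 CPM in Lamp5 nuclei and 65.2, 93.6 and 114 CPM in Sst nuclei. The Vip range overlapped none of the others, and the log2 differences were 1.02, 1.73 and 2.74 (edgeR adjusted p = 3.35e-08, 3.21e-15 and 1.41e-18). Scg2, a secretogranin of peptide vesicles, had 345, 384 and 407 CPM in Vip nuclei and at most 244 CPM elsewhere (log2 0.93, 1.50 and 1.35).

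Transcription factors of the interneuron lineages also differed by class. Prox1, a homeobox transcription factor of interneurons from the caudal ganglionic eminence, had 199, 285 and 300 CPM in Vip nuclei, against 96.7, 130 and 154 CPM in Sncg nuclei, 92.3, 132 and 182 CPM in Lamp5 nuclei and 0, 1.17 and 2.17 CPM in Sst nuclei. The Vip range overlapped none of the others (log2 0.95, 1.07 and 7.78, edgeR adjusted p = 4.56e-07, 3.54e-08 and 2.46e-22). Lhx6, a factor of the medial eminence, had 0, 0 and 2.21 CPM in Vip nuclei and 71.2, 91.5 and 117 CPM in Sst nuclei (log2 -6.79, adjusted p = 2.12e-17). The 5 tested genes of the medial list were all lower in Vip than in Sst nuclei (median -4.49). Of the caudal list, 11 of 14 were higher and 1 lower than in Sst nuclei (median 1.53), 8 of 13 higher and 1 lower than in Lamp5 nuclei (0.73), and 3 of 13 higher and 5 lower than in Sncg nuclei (-0.36). Among all genes 17.6%, 13.6% and 11% were higher and 15.4%, 12.6% and 9.15% lower in these comparisons (medians 0.00, -0.01 and 0.01).

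By a rule of size, the 8 genes most above the Sst class also held Adarb2, Egfr and Cxcl14 (log2 9.61, 7.15 and 6.16), and the 8 most below it Crhbp, which binds corticotropin-releasing hormone, and Pdyn, the dynorphin precursor (-7.30 and -7.12, edgeR adjusted p = 3.14e-20 and 5.6e-18). Among the lowest against Lamp5 nuclei were Ndnf (-7.73, adjusted p = 2.77e-21), a defining gene of neurogliaform cells, and Nxph1, a neurexin ligand (-5.11, adjusted p = 1.24e-24). Against Sncg nuclei Nrp1 and Cdh7 were among the highest (4.99 and 4.46) and Ror1, Col14a1 and Col25a1 among the lowest (-4.24, -3.86 and -3.73).

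A further set was low in Vip nuclei whichever class stood opposite. Reln, the secreted glycoprotein reelin, had 42, 53.1 and 119 CPM in Vip nuclei, against 381, 580 and 792 CPM in Sncg nuclei, 702, 876 and 1285 CPM in Lamp5 nuclei and 708, 799 and 1094 CPM in Sst nuclei (log2 -3.32, -3.78 and -3.82). Ptprm, a receptor phosphatase of cell contacts, had 65.1, 129 and 216 CPM in Vip nuclei and at least 722 CPM in every mouse of the other classes (-3.58, -4.23 and -2.77). Unc5d, a netrin receptor (chromosome 8, 28646717 to 29219636, minus strand), had 19.7, 38.7 and 53.9 CPM in Vip nuclei and at least 129 CPM elsewhere (-2.62, -4.47 and -3.25). The Vip range overlapped none of the others for these 3 genes, and each edgeR adjusted p was at most 6.32e-14.

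The Vip nuclei were not alike among themselves. To compare nuclei at 1 depth, the UMIs of each nucleus were drawn down at random to 2000, and all 750 Vip nuclei reached that number. At that depth 33.6% held a UMI of Tac2 (40.7% unthinned), 25.5% of Crh (46.5%), 24.1% of Penk (42.4%) and 9.07% of Calb2 (19.3%). Oligodendrocytes, which should lack these genes, gave 1.09%, 0.363%, 0.726% and 0.484% for the same genes at 2000 UMIs, and their unthinned median depth was 1891 UMIs against 6206 in Vip nuclei. Shares far above that background also held for Car10 (46.1% against 7.2%), Ptprt (34.3% against 7.2%), Htr2c (31.3% against 0.545%), Rxfp1 (17.1% against 0.666%), Chat (4.93% against 0%) and Mybpc1 (5.47% against 0.0605%). Cck (26% against 27.7%), Igfbp6 (3.6% against 4.84%), Pltp (0.133% against 0.545%), C1ql1 (0.533% against 0.666%) and Lmo1 (0.267% against 0.303%) were below the oligodendrocyte share. Igfbp4 was close to it (3.33% against 2.66%), and Crispld2 and Slc18a3 were at 0% in both. These shares of nuclei are thus not read as expression. The oligodendrocyte share rests on 1652 of 3726 nuclei, since 2074 were too shallow to thin. Pooled over all mice, Cck was at 217 CPM in Vip nuclei, against 204 CPM in oligodendrocytes, 87 CPM in Lamp5 and 37.3 CPM in Sst nuclei.

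Tac2, Crh, Penk and Calb2 marked overlapping sets. Without thinning, 305 Vip nuclei held a Tac2 UMI, 349 Crh, 318 Penk and 145 Calb2. None of the 4 was detected in 100 nuclei, 1 in 285, 2 in 272, 3 in 84 and all 4 in 9. Crh was detected in 62% of Tac2-positive and 36% of Tac2-negative nuclei, whereas Penk was detected in 24.9% of Tac2-positive and 54.4% of Tac2-negative nuclei. The median depth was 6113 UMIs in Tac2-positive and 6331 UMIs in Tac2-negative nuclei, against 6167 and 6257 in the Crh, 6395 and 6142 in the Penk and 6597 and 6116 in the Calb2 split. The splits were made on the nuclei they describe, so the values below carry no test. They are mean TMM-scaled CPM over 6 mice with SD, and every difference named ran the same way in 6 of 6 mice.

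Tac2-positive nuclei leaned to Npy, with 354 ± 29.5 CPM against 79.4 ± 36.7 CPM in Tac2-negative nuclei (log2 2.18), and to Cck, with 375 ± 116 CPM against 145 ± 10.7 CPM. Htr3a followed them (144 against 47.9 CPM), as did the chemokine gene Cxcl14 (491 against 133 CPM) and the cannabinoid receptor gene Cnr1 (986 against 528 CPM). Adra1b and Htr2a were higher there too, by 1.16 and 2.39 on the log2 scale. Penk was lower (84.3 against 271 CPM), along with Grm8 (275 against 1056 CPM), Nrp1 (22.4 against 106 CPM), Oprm1 (22 against 83.1 CPM) and Npy2r (16.3 against 60 CPM).

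Penk-positive nuclei ran opposite to Tac2-positive nuclei in the genes named next. Not every gene did so, and Mybpc1 was higher in both (log2 1.92 in the Tac2 and 1.44 in the Penk split). Grm8 was at 1280 CPM in Penk-positive and 333 CPM in Penk-negative nuclei (log2 1.98), and Ntm, a cell adhesion gene, at 2081 and 665 CPM. Oprm1, whose product binds the enkephalins that Penk encodes, was at 84.3 CPM in Penk-positive and 38.5 CPM in Penk-negative nuclei. Npy was at 38.6 CPM in Penk-positive and 301 CPM in Penk-negative nuclei (log2 -2.88), Cck at 116 and 331 CPM, Cnr1 at 408 and 939 CPM and Htr2c at 150 and 345 CPM.

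Crh-positive nuclei were richer in Tac2 (736 against 262 CPM in Crh-negative nuclei), Cxcl14 (448 against 127 CPM), Pnoc, the nociceptin precursor (113 against 52.7 CPM), and Htr3a (124 against 57.1 CPM), and poorer in Creb5 (6.88 against 64.5 CPM, log2 -3.11) and Chat (14.2 against 35.4 CPM). Calb2-positive nuclei held more Wnt5b (289 against 123 CPM in Calb2-negative nuclei), Nrp1 (116 against 60 CPM) and Chat (43.8 against 20.7 CPM). They held less Cck (125 against 270 CPM), Cnr1 (395 against 792 CPM) and Pnoc (48.2 against 90.3 CPM), and Il1rapl2 was at 9.16 against 79.2 CPM (log2 -2.86). Over all genes measured in each split, 440 of 7511 were higher and 436 lower in Tac2-positive nuclei in all 6 mice, 343 and 415 of 7448 in Penk-positive, 323 and 327 of 8035 in Crh-positive, and 192 and 223 of 7400 in Calb2-positive nuclei.

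**Figure D2:**
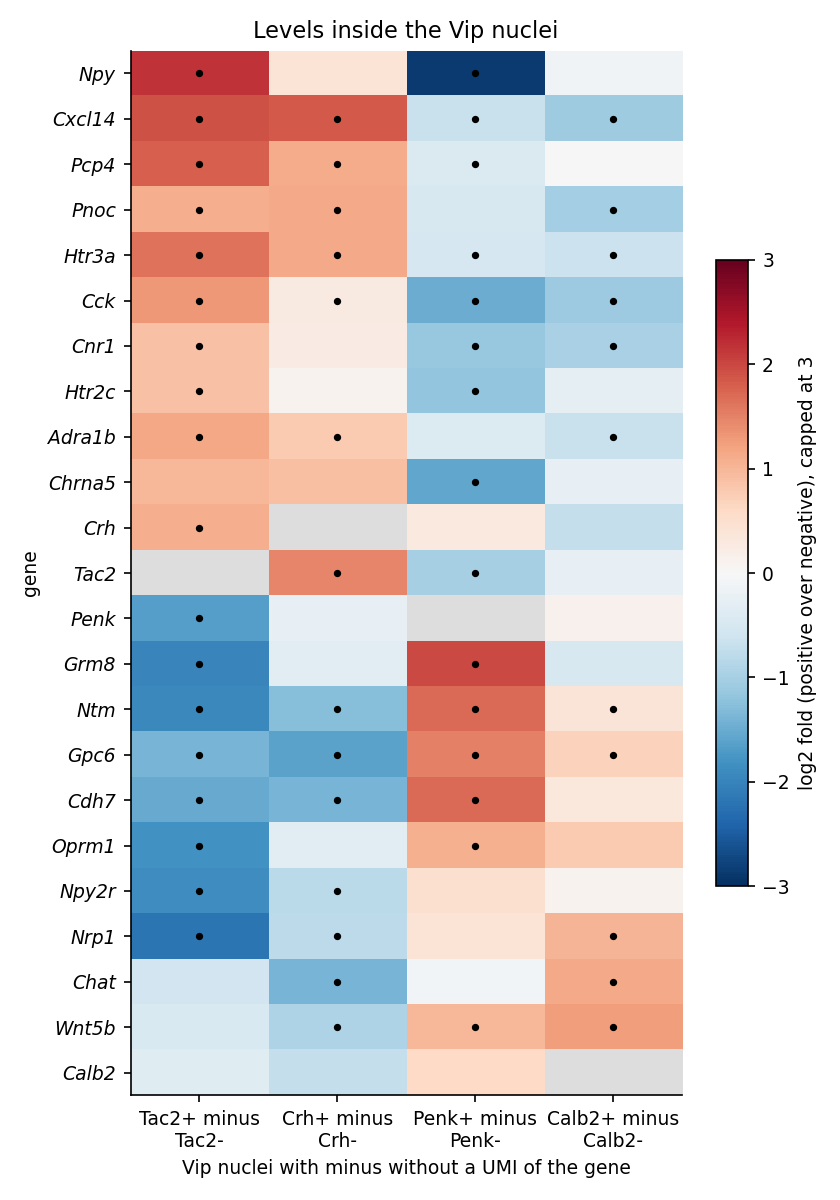
Log2 ratio of marker-positive to marker-negative Vip nuclei (colour, capped as the scale shows) for genes in rows and the 4 splits by Tac2, Crh, Penk and Calb2 in columns, with a dot where all 6 mice ran the same way and grey for the splitting gene itself. Npy is at 2.18 in the Tac2 column and -2.88 in the Penk column, and Grm8 at -1.97 and 1.98.

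Whether training went with a change in the number of Vip nuclei was asked next. Of all kept nuclei, 1.34%, 1.42% and 1.57% were Vip nuclei in trained mice 2, 4 and 6, against 1.70%, 1.27% and 1.47% in control mice 1, 3 and 5. The groups overlapped, with means of 1.44% ± 0.115 and 1.48% ± 0.217 (SD, n = 3 each) and a difference of -0.0376 percentage points (exact two-sided permutation test, p = 0.9). Without trained mouse 2 the difference was 0.014 and without control mouse 1 it was 0.0739 points. Of GABAergic nuclei, Vip nuclei made up 11.2%, 12.6% and 11.5% in trained mice 2, 4 and 6, against 14.1%, 13.5% and 13.4% in control mice 1, 3 and 5. Here every trained mouse lay below every control mouse, with means of 11.8% ± 0.751 and 13.6% ± 0.374 and a difference of -1.85 points. The exact permutation test gave p = 0.1, the smallest it can give for 3 against 3 mice, so this difference does not pass 0.05. With nuclei thinned to 2000 UMIs before the rule, the means were 11.3% ± 2.04 and 13.3% ± 0.436 (exact p = 0.2).

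**Figure D3:**
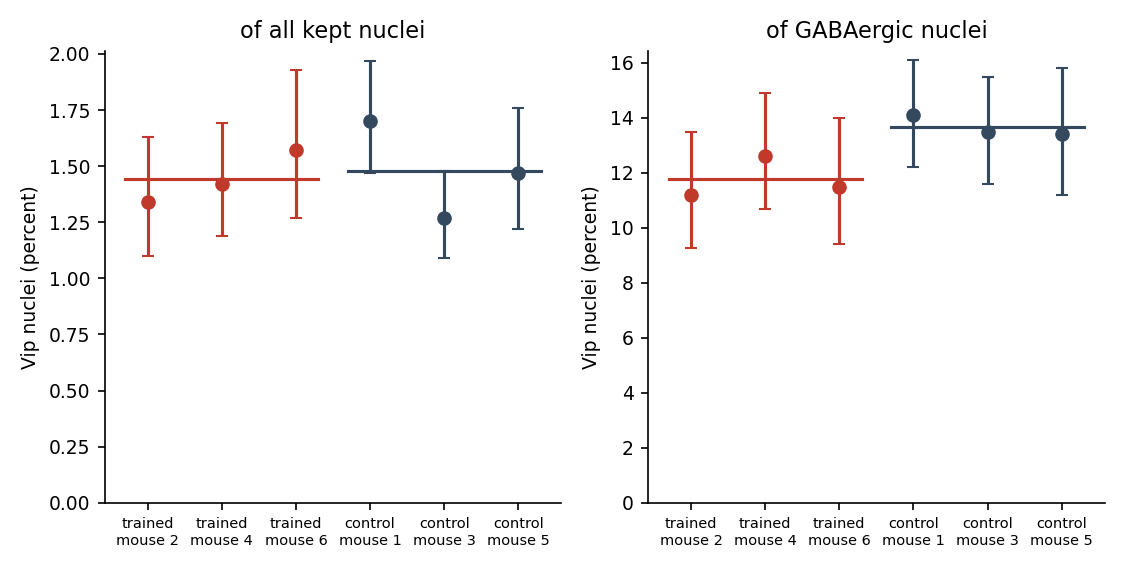
Share of Vip nuclei in percent of all kept nuclei (left) and of GABAergic nuclei (right) for each trained and control mouse, with 95% intervals for counting error only and a line at the group mean. Trained and control mice overlap on the left (1.34% to 1.57% against 1.27% to 1.70%) and not on the right (11.2% to 12.6% against 13.4% to 14.1%).

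The makeup of the Vip nuclei was compared over 32 subtype markers at 2000 UMIs. Nuclei with a Tac2 UMI made up 37.9%, 33.3% and 39.1% in trained mice 2, 4 and 6, against 31.8%, 30.8% and 32.7% in control mice 1, 3 and 5. Nuclei with a Ptprt UMI made up 33.7%, 31.7% and 28.7% in trained mice, against 38.2%, 34.6% and 35.4% in control mice. These were the only markers of the 32 whose groups did not overlap (exact permutation p = 0.1 each, adjusted p = 1). At 3000 UMIs the groups overlapped for Ptprt (exact p = 0.5), and with doublets left out they overlapped for Tac2 (exact p = 0.2). Crh was detected in 24.9% ± 4.47 of trained and 26.4% ± 4.1 of control Vip nuclei, and Penk in 22.4% ± 10.3 and 25% ± 3.93, both within the spread between mice.

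The training comparison of expression used the UMI sums of Vip nuclei of 3 trained and 3 control mice in edgeR. Of 8608 genes tested, 0 (0%) passed the quasi-likelihood test at an adjusted p of 0.05, and the smallest adjusted p was 0.202. An unadjusted p under 0.05 was reached by 354 genes (4.11%), 198 higher and 156 lower in trained mice. DESeq2 also called 0, with 125 genes at an unadjusted p under 0.05. In 395 genes (4.59%) all trained mice lay above all control mice, and in 402 (4.67%) below. For a gene that does not differ, 3 against 3 mice separate with a probability of up to 0.1, both directions together. Of the alternatives, edgeR without a filter on low counts called 16 of 19666 genes, edgeR with a term for each mouse's median UMIs per Vip nucleus called 4, and edgeR without trained mouse 2, trained mouse 4 or control mouse 3 called 2, 4 and 1. The genes below are thus those nearest to the threshold, chosen by smallest p among genes whose groups did not overlap, and none is called changed by the test as described. Of them, Mir670hg, Trabd2b, Tshz2, Unc5d, Gpc5, Garem1 and Rac3 were called without the filter, and Mir670hg, Tshz2 and Gpc5 also with the depth term.

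Mir670hg was the gene of smallest p. It is a long noncoding RNA gene (chromosome 2, 94160636 to 94264918, minus strand) that hosts the microRNA miR-670, and its mature products are shown because the host transcript is the leading candidate of the comparison, though the capture of polyadenylated nuclear RNA did not measure them. Both sequences are from RefSeq on GRCm38.p6, with the seed, bases 2 to 8, in capitals. They lie at chr2:94261358-94261379 and chr2:94261316-94261340 on the minus strand, within the host gene.
mmu-miR-670-5p: aUCCCUGAguguauguggugaa
mmu-miR-670-3p: uUUCCUCAuauccauucaggagugu
The host transcript had 411, 194 and 296 CPM (TMM-scaled, as are all training values) in Vip nuclei of trained mice 2, 4 and 6, against 93.5, 162 and 84.3 CPM in control mice 1, 3 and 5. All trained mice lay above all controls, with a log2 difference of 1.40 ± 0.248 (edgeR adjusted p = 0.202). It was called without trained mouse 4 (adjusted p = 0.00253), without control mouse 3 (0.0253), without the filter (3.16e-12) and with the depth term (0.0067).

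Among the other higher genes, Plekhg5, a guanine nucleotide exchange factor (chromosome 4, 152072498 to 152115400, plus strand), had 63.1, 56.4 and 65 CPM in trained mice 2, 4 and 6, against 34.5, 29 and 31.1 CPM in control mice 1, 3 and 5. The mice of each group lay close together, and separate groups were a condition of the choice (log2 difference 0.95 ± 0.212, edgeR adjusted p = 0.358). Trabd2b, a protease that inactivates Wnt ligands, had 28, 17.9 and 17.9 CPM in trained against 0, 7 and 3.89 CPM in control mice (2.65 ± 0.573, adjusted p = 0.358). Tshz2, a zinc finger homeobox gene, had 14, 83.9 and 37.4 CPM in trained against 7.66, 12 and 10.4 CPM in control mice, with trained mouse 4 far above the rest (2.20 ± 0.484, adjusted p = 0.358, and 1.34 without that mouse). It was called without trained mouse 2 (2.64, adjusted p = 0.00223). The synaptic vesicle gene Sv2c, Eps8, Ypel5, Gnl3 and Mboat2 differed by 1.80, 0.72, 1.02, 0.80 and 0.69 on the log2 scale (Mboat2 by 0.41 without trained mouse 2), and Dlx1as, an antisense transcript that overlaps the interneuron gene Dlx1, by 0.51.

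On the lower side, Unc5d had 26.6, 22 and 21.1 CPM in trained mice 2, 4 and 6, against 54.4, 54 and 54.5 CPM in control mice 1, 3 and 5. The control mice hardly differed from each other, and the log2 difference was -1.21 ± 0.234 (edgeR adjusted p = 0.202). Gpc5, a glypican of the cell surface (chromosome 14, 115092215 to 116525179, plus strand), had 102, 30.3 and 32.5 CPM in trained against 200, 142 and 145 CPM in control mice (-1.56 ± 0.302, adjusted p = 0.202). Its difference was -0.35 with doublets left out, and it was called without trained mouse 2 (-2.38, adjusted p = 3.81e-05). Garem1, an adaptor of growth factor signalling, had 9.81, 16.5 and 14.6 CPM in trained against 41.4, 33 and 38.9 CPM in control mice (-1.47 ± 0.30, adjusted p = 0.268), and Rac3, a small GTPase, 4.2, 9.63 and 6.5 against 26, 23 and 18.2 CPM (-1.73 ± 0.39, adjusted p = 0.358). Rapgef5, Fam126a, Zfp804a, Ift80, Sertm1 and Vegfa differed by -1.05, -1.51, -0.48, -0.96, -1.17 and -1.03 (adjusted p = 0.999 each). Of these, the zinc finger gene Zfp804a was itself higher in Vip nuclei than in each other class (log2 2.90, 2.31 and 2.68), with 966, 941 and 1068 CPM in trained against 1388, 1136 and 1634 CPM in control mice.

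**Figure D4:**
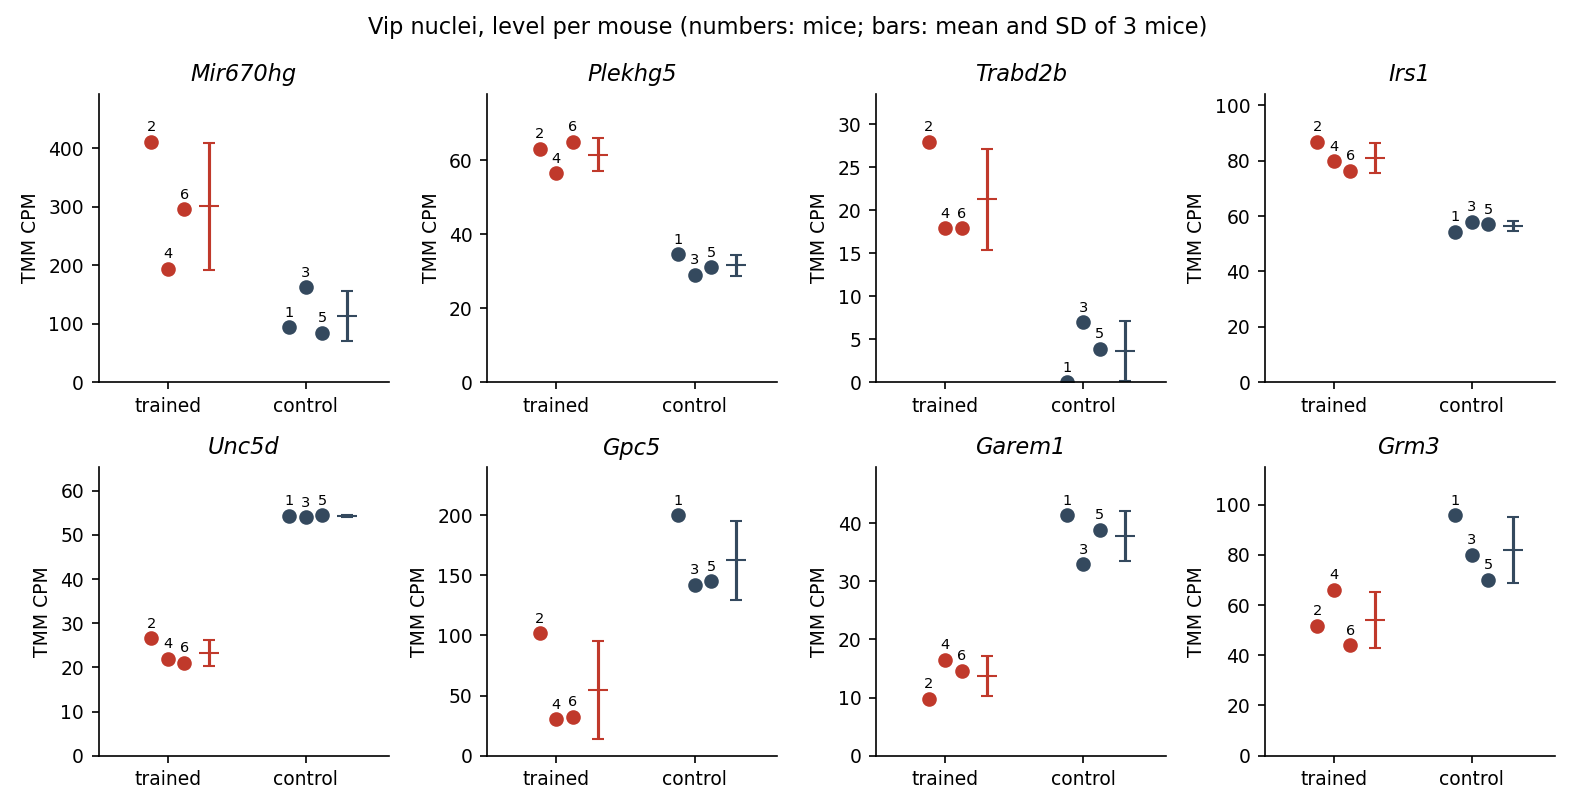
TMM-scaled CPM of 8 genes in Vip nuclei of trained (left) and control mice (right), 1 point per mouse, with the group mean and SD. The groups do not overlap, as for Plekhg5 (56.4 to 65 against 29 to 34.5 CPM) and Unc5d (21.1 to 26.6 against 54 to 54.5 CPM). Except for the list members Irs1 and Grm3, the genes were chosen for that lack of overlap. Of all 8608 genes, 4.59% had all trained mice above all control mice and 4.67% below. No gene passed the adjusted threshold.

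Markers of other cells were summed in the same Vip sums. Astrocyte markers (6 genes) summed to 283 to 336 CPM in trained and 347 to 374 CPM in control mice and did not overlap. Oligodendrocyte markers (6 genes) summed to 63.6 to 136 against 76.5 to 204 CPM, glutamatergic markers without Slc17a7 to 28.9 to 86.6 against 47.2 to 63.8 CPM, striatal markers to 1087 to 2220 against 747 to 1246 CPM, and vascular markers, with Dcn at 0, to 6.77 to 11.9 against 4.41 to 9.97 CPM. Sncg-class markers summed to 776 to 1157 against 747 to 887 CPM and Sst-class markers, without Sst and with Chodl at 0, to 217 to 299 against 285 to 323 CPM. The striatal sum was mostly Pde10a, which had 1105 to 2378 CPM in trained and 754 to 1249 CPM in control Vip nuclei (TMM-scaled with the Lamp5 sums). Cnr1, at 560 to 932 against 533 to 745 CPM, and Cck, at 211 to 311 against 178 to 213 CPM (TMM-scaled), made up most of the Sncg-class sum. Both sums thus rest on few genes and are no measure of other cells by themselves. The part of other cells in the training differences was not tested.

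No member of any gene list passed the edgeR threshold, and over all 8608 genes the median log2 difference was -0.00. Of 17 immediate early genes tested, 10 were above and 7 below 0 (median 0.19), with 1 at an unadjusted p under 0.05 each way. The higher one, Fosl2, had 26.6, 28.9 and 48.8 CPM in trained against 16.1, 23 and 25.9 CPM in control mice (log2 0.70, and 0.39 without trained mouse 6), and the lower one, Dusp6, a phosphatase of the ERK pathway, 16.8, 16.5 and 14.6 against 18.4, 33 and 28.5 CPM (-0.70). Nr4a1 had 135, 155 and 133 against 58.2, 129 and 126 CPM, with control mouse 1 low (0.47, and 0.15 without it). Of 18 slower genes 11 were above 0 (median 0.17). Igf1 had 974, 516 and 870 CPM in trained against 505, 622 and 560 CPM in control mice, which overlap (0.48, and 0.30 without trained mouse 2), and Kdm6b, a histone demethylase, 35, 42.7 and 42.3 against 29.9, 29 and 18.2 CPM (0.60).

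In the growth factor list 4 of 14 tested genes were above and 2 below 0 at an unadjusted p under 0.05 (median 0.02), against 198 and 156 of all 8608 genes. The smallest edgeR adjusted p of the list was 0.999. Irs1, the adaptor that carries the insulin and IGF receptor signal, had 86.9, 79.8 and 76.4 CPM in trained mice 2, 4 and 6, against 54.4, 58 and 57.1 CPM in control mice 1, 3 and 5 (log2 0.52 ± 0.178, edgeR adjusted p = 0.999). Ntrk2, the receptor of brain-derived neurotrophic factor, had 1634, 1134 and 1408 against 1014, 1095 and 1044 CPM (0.41 ± 0.144, adjusted p = 0.999). Both groups were separate for these genes. Igfbp4, a binding protein of insulin-like growth factors, had 12.6, 13.8 and 8.13 against 21.4, 22 and 19.5 CPM (-0.85, edgeR adjusted p = 0.999). It rests on 89 UMIs over 6 mice, and its share of Vip nuclei was close to that of oligodendrocytes, as given above.

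Of the neuropeptide list, without Vip and Sst, 4 of 6 tested genes were above 0 (median 0.09), and only Cck reached an unadjusted p under 0.05, with 287, 211 and 311 CPM in trained against 178, 213 and 204 CPM in control mice (log2 0.44, edgeR adjusted p = 0.999). Pnoc had 102, 82.6 and 82.9 against 49, 81 and 73.9 CPM (0.42, and 0.21 without control mouse 1). The peptide receptor list had a median of 0.07 (9 tested), the serotonin, noradrenaline and acetylcholine receptors 0.22 (15 tested), the glutamate receptors 0.01 (22 tested) and the GABA genes, without Gad1 and Gad2, -0.02 (16 tested). Grm3 was the glutamate receptor gene of smallest p, with 51.8, 66.1 and 43.9 against 95.8, 80 and 70 CPM and no overlap (-0.61 ± 0.204). Clock genes had a median of -0.02 (16 tested), subtype markers 0.07 (19 tested) and caudal lineage genes -0.01 (14 tested).

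Of 11 tested glucocorticoid-responsive genes 7 were above 0 (median 0.10). Fkbp5, a chaperone partner of the glucocorticoid receptor, had 57.5, 52.3 and 61.8 CPM in trained against 43.7, 30 and 15.6 CPM in control mice, without overlap (log2 0.87 ± 0.277, edgeR adjusted p = 0.999). All 6 tested mitochondrial genes were above 0 (median 0.69), and trained mouse 2 stood apart in them. The cytochrome oxidase gene mt-Co3 had 167, 74.3 and 79.7 CPM in trained against 70.5, 68 and 62.2 CPM in control mice (0.67, and 0.19 without trained mouse 2), and mt-Cytb, of cytochrome b, 88.3, 16.5 and 24.4 against 29.9, 13 and 11.7 CPM (1.17, 0.07 without that mouse and 1.80 without control mouse 1).

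**Figure D5:**
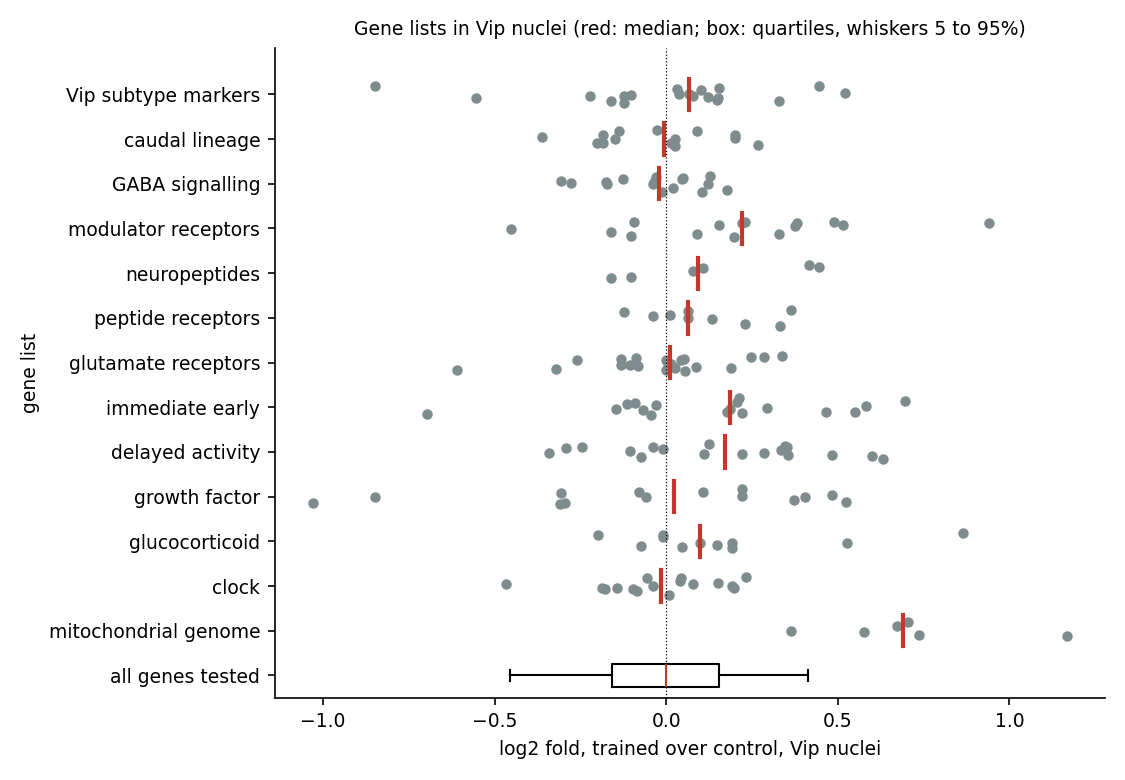
Log2 difference of trained over control mice in Vip nuclei for each tested gene of 13 lists (grey points), with the list median in red and, beside them, a box for all 8608 genes tested (whiskers at 5% and 95%). Medians lie between -0.02 and 0.22 except for the mitochondrial list at 0.69, and no point passed the adjusted threshold.

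Whether training differences in Vip nuclei differed from those in the other classes was tested by the class by training term in edgeR, with mouse as a block. It was called for 2 of 9574 genes against Sncg nuclei (0.0209%), 20 of 9174 against Lamp5 nuclei (0.218%) and 1 of 10632 against Sst nuclei (0.00941%). DESeq2 called 0, 0 and 1. Leaving out 1 mouse at a time gave 0 to 15, 7 to 31 and 1 to 3 calls. The Sncg sums held 20 to 55 nuclei and 237514 to 716496 UMIs per mouse, and the Lamp5 sums 24 to 49 nuclei and 238700 to 500029 UMIs. Levels of a few CPM in these classes thus rest on very few UMIs, and large log2 terms built on them are uncertain in size.

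Against Sst nuclei the gene was Gpc5. It had 99.9, 29 and 31.4 CPM in Vip nuclei of trained mice 2, 4 and 6, against 195, 137 and 140 CPM in control mice 1, 3 and 5, and in Sst nuclei 645, 433 and 329 CPM in trained against 403, 449 and 255 CPM in control mice. The Vip groups were separate and the Sst groups overlapped, with a log2 difference of the training differences of -1.97 ± 0.244 (edgeR adjusted p = 0.000155). With doublets left out it was -0.77 (adjusted p = 0.774). Against Sncg nuclei, Vwc2l had 312, 252 and 404 CPM in trained against 208, 251 and 241 CPM in control Vip nuclei, and 76.4, 11.7 and 52.3 against 121, 137 and 90.4 CPM in Sncg nuclei (1.81, adjusted p = 0.0264). It was not called by DESeq2, with at least 5 Vip UMIs, or without trained mouse 4, control mouse 1 or control mouse 3. In the same Sncg sums, oligodendrocyte markers came to 15.5 to 23.6 CPM in trained and 39.3 to 467 CPM in control mice and astrocyte markers to 104 to 130 against 131 to 350 CPM, and their part in these calls was not tested. Pla2g6, a phospholipase, had 88.9, 9.2 and 9.21 against 4.33, 3.79 and 4.92 CPM in Vip nuclei and 3.32, 0 and 0 against 12.6, 20.1 and 0 CPM in Sncg nuclei, with trained mouse 2 far above the rest (6.16, adjusted p = 0.0264). It was not called by DESeq2 or without trained mouse 4 or control mouse 1, and without trained mouse 2 or control mouse 3 it fell under the filter on low counts.

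Of the 20 terms called against Lamp5 nuclei, 19 were above 0 and 1, that of Unc5d, below. The 4 genes given here are the 3 of smallest p above 0 and Unc5d. Those 3 had control levels above trained levels in most Lamp5 sums. Other called genes also had lower Lamp5 means in trained mice, such as Cdh12 (24 against 112 CPM) and Cntn4 (227 against 438 CPM). For Pde10a the means were 975 against 966 CPM. Fam19a1 had 110, 54.8 and 82.2 CPM in trained against 113, 94.7 and 31.8 CPM in control Vip nuclei, which overlap, and 8.15, 31.1 and 30.4 against 540, 421 and 10.9 CPM in Lamp5 nuclei (log2 3.71, edgeR adjusted p = 6.41e-06). For Gpc5, whose Vip groups were separate as given above, Lamp5 nuclei held 4.08, 3.46 and 0 CPM in trained against 255, 138 and 92.4 CPM in control mice. Gpc6 had 490, 708 and 447 against 791, 543 and 580 CPM in Vip nuclei, which overlap, and 0, 6.91 and 0 against 116, 74.7 and 19 CPM in Lamp5 nuclei. Their terms were 4.25 and 4.46 (edgeR adjusted p = 0.000339 each), and without trained mouse 4, which leaves Gpc6 at 0 in trained Lamp5 nuclei, its fitted term was 7.99. In the same Lamp5 sums, vascular markers came to 0 to 4.19 CPM in trained and 18.3 to 68.7 CPM in control mice, astrocyte markers to 128 to 151 against 247 to 292 CPM, and glutamatergic markers without Slc17a7 to 20.1 to 35.7 against 43.9 to 112 CPM, and their part in these calls was not tested. Unc5d went the other way, with 27.1, 22.5 and 21.4 CPM in trained against 55.4, 55 and 55.6 CPM in control Vip nuclei and 1223, 823 and 864 against 974, 733 and 894 CPM in Lamp5 nuclei (-1.38, adjusted p = 0.00609). It lost the call without trained mouse 2 (adjusted p = 0.149), with doublets left out (0.0932) and under DESeq2, as Gpc5 did without trained mouse 2 and all 4 genes under DESeq2.

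Mir670hg was compared across the classes in the same way. It had 489, 250 and 222 CPM in trained against 218, 270 and 185 CPM in control Sncg nuclei, which overlap, 32.6, 3.46 and 52.1 against 37.4, 47.5 and 46.2 CPM in Lamp5 nuclei, and 49.4, 29 and 28.4 against 24.9, 31.8 and 25.6 CPM in Sst nuclei. The training difference in Vip nuclei exceeded that in Lamp5 nuclei by 2.04 on the log2 scale (edgeR adjusted p = 0.0147). That call was lost under DESeq2 (2.13, adjusted p = 0.404) and without trained mouse 2, trained mouse 4 or control mouse 5 (1.68 to 1.88, adjusted p = 0.0864 to 0.202). The difference was not shown to differ from that in Sncg nuclei (0.97, adjusted p = 0.37) or Sst nuclei (1.05, adjusted p = 0.312).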

How the data were processed

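RNA of single nuclei from 6 mice was sequenced in droplets. The authors deposited 1 matrix of raw UMI counts per gene and nucleus, joined over mice and runs, with lists of genes and barcodes, and the barcode suffix gave the mouse, per the series' design text. Cell Ranger 4.0.0 and the build mm10 are named in the submitters' processing notes. Not given in the sources used here are the barcode filter, the counting of introns, the use of strand and any equalising of depth, so overlapping and antisense genes such as Dlx1as remain uncertain. Counts without strand cannot separate such pairs.

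Classes were gated on UMIs as stated in the text, with at most 2 Vip UMIs in each other class. The Sncg class had at most 2 Lamp5, at least 10 Cnr1 and at least 5 Adarb2 UMIs, the Lamp5 class at least 3 Lamp5 and 5 Adarb2 UMIs, and oligodendrocytes at least 1 Mog UMI and a minimum for a second marker, which is not reported here. The Sst class had at most 1 Pvalb UMI. Sums per mouse were tested in edgeR 4.0.16 (R 4.3.3, limma 3.58.1) with TMM scaling, filterByExpr, the quasi-likelihood test and Benjamini-Hochberg adjustment, and DESeq2 1.42.0 was an alternative. Shares were tested by exact permutation. Doublets were called by Scrublet in scanpy 1.11.5 (expected share 6%). Other steps used Python 3.11.15, numpy 2.4.6, scipy 1.17.1, pandas 2.3.3 and matplotlib 3.10.9. The fits were tested on simulated data. Intervals and limits at 0 cover counting error only, at 95% and 3 counts. P-values measure the spread between these mice.

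The members, lists and tests were chosen with earlier results of these data known, so patterns already seen there, such as Mir670hg, Fkbp5 and the mitochondrial genes, are no independent support. In the training comparison genes were named by smallest p, 10 each way, among those with at least 10 CPM and groups that did not overlap, and up to 4 members of each list. Between classes the rule named the 8 higher and 8 lower genes of largest fold among those called with at least 50 CPM and 6 mice in one direction, and for interactions the called ones among the 3 of smallest p each way. Genes named in the 4 splits, and list members named between classes, were chosen after their values were seen. Positions are from GENCODE M21 on mm10.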

Additional observations from a re-analysis of the deposited data

Results flagged for a closer look

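For 8 of the 23 called differences, those named in the text, the training difference in Vip nuclei differed from that in another class by a test of the difference itself (edgeR, class by training term). Against Sncg nuclei these were Vwc2l (log2 difference 1.814, adjusted p = 0.0264) and Pla2g6 (6.162, adjusted p = 0.0264), the second with 88.9 CPM in trained mouse 2 and at most 9.21 CPM in each other Vip sum. Against Lamp5 nuclei they were Fam19a1 (3.706), Gpc5 (4.249), Gpc6 (4.463), Mir670hg (2.037) and Unc5d (-1.377). For Gpc6 the Lamp5 nuclei held 0, 6.91 and 0 CPM in trained mice 2, 4 and 6, against 116, 74.7 and 19 CPM in control mice 1, 3 and 5. Against Sst nuclei the gene was Gpc5 (-1.966), whose term was -0.772 with doublets left out (edgeR adjusted p = 0.774). DESeq2 called none of the terms against Sncg and Lamp5 nuclei.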

How the results depend on the processing

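The main training count of 0 genes became 16 without a filter on low counts and 4 with a depth term, and 0 to 4 with 1 mouse left out. DESeq2 called 1146, 1556 and 2193 genes between Vip and Sncg, Lamp5 and Sst nuclei, against 1927, 2407 and 3508 by edgeR. Without the filter, edgeR called 1262 higher and 765 lower against Sncg nuclei, which moved the share of higher calls to 62.3% (54.5% with the filter), and to 59.5% (51.9%) against Lamp5 nuclei. The interaction counts of 2, 20 and 1 against Sncg, Lamp5 and Sst nuclei became 0, 0 and 1 under DESeq2, 10, 42 and 17 without the filter, 4, 12 and 0 without doublets and, with at least 5 Vip UMIs, 1 against Sncg and 3 against Sst nuclei. Leaving out 1 mouse gave 0 to 15, 7 to 31 and 1 to 3. The share of Vip nuclei among all kept nuclei differed by 0.00543 points when no Sst UMI was allowed, and by -0.143 to 0.0739 with 1 mouse left out, with a positive sign without trained mouse 2 (0.014) or control mouse 1 (0.0739). Markers whose groups did not overlap numbered 4 at 3000 UMIs (Cck, Mab21l1, Igfbp6 and Tac2), 3 without doublets (Ptprt, Myl1 and Igfbp4) and 2 to 8 with 1 mouse left out, against 2 (Tac2 and Ptprt). For a marker that does not differ, 3 against 3 mice separate with a probability of up to 0.1, and more often with 1 mouse left out. These counts are therefore not read as changes in makeup. The cause of these shifts was not tested. A fit without the filter tests more genes and also estimates the spread between mice with low-count genes included. Its calls are therefore not read as support for those genes. Of 1463 alternative values for 133 named class differences, 1449 kept direction and call and 14 lost the call. Of 472 training values 458 kept direction and stayed without a call, as in the main fit, and 14 became called, for 7 genes. The genes were named by smallest p, so a kept direction is weak evidence of stability. Values counted as kept could shrink, as for Gpc5 without doublets (-0.355 against -1.555). For mt-Cytb without trained mouse 2 the value was 0.066 against 1.168. Of 218 interaction values 183 kept both, 15 gained and 20 lost the call. No paired analysis was possible because trained and control mice share no replicate numbers in the labels. Splits of Vip nuclei without doublets were added after seeing the data, and all 80 values kept their direction. With 3 mice a group and 5084 to 7141 UMIs in the median Vip nucleus of a mouse, small training differences could not be shown.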
